A study of Mus musculus with 12 samples.

Results

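The MYC and MAX network is a family of transcription factors that bind DNA in pairs, and its messenger RNAs were followed here through the first hours of liver regeneration. The 8 genes described are Myc, its partner Max, the antagonists Mxd1, Mxd4, Mxi1 and Mnt, the related partner Mlx, and Mga, a large MAX-binding protein. They were taken by gene name from the deposited table, where each has 1 row among 54532 genes. Of the 8, 7 reached the level needed for testing (1 FPKM or more in at least 3 of 12 libraries, 11451 genes in all), and Mxd1 did not. FPKM are fragments scaled by gene length and library size, so levels can be set side by side between genes. All mice were wild-type C57/BL6J. Poly(A) RNA from whole liver was sequenced in 4 groups of 3 libraries, from sham-operated mice and from mice at 3, 6 and 12 h after a 70% hepatectomy. Neither an age nor the hour of sham collection is labelled. The third 6 h library is called 6 h in its title and 7 h in its time field, and was kept with the 6 h group. Nothing states outright that each library is its own mouse, so the p-values measure the spread between these libraries, which may be technical.

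MYC cannot bind DNA alone: it pairs with MAX, and the pair binds the E-box CACGTG and raises transcription of genes for ribosomes, nucleotides and cell cycle entry. MXD1, MXD4, MXI1 and MNT compete for the same MAX and the same E-boxes but recruit SIN3 and histone deacetylases, which lower transcription. MLX is a parallel partner, which pairs with MXD proteins, with MNT, and with the glucose-responsive factors MondoA (gene Mlxip) and ChREBP (gene Mlxipl). In the liver, Myc is a classical early gene after partial hepatectomy, and ChREBP drives sugar use and fat synthesis after feeding.

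The E-box itself lies just upstream of several of the genes, and the following stretches are shown because both the falling antagonists Mxd4 and Mnt and the rising Mlx carry one. Each line gives 60 bases of GRCm38, 5′ to 3′ on the strand of the gene, from RefSeq promoter windows (250 bases before to 50 after the annotated start, GRCm38.p6), with CACGTG in capitals. The Mxd4 stretch is chr5:34187897-34187956 on the minus strand, the Mnt stretch chr11:74830774-74830833, the Mlx stretch chr11:101087223-101087282 and the Mlxipl stretch chr5:135089765-135089824, all 3 on the plus strand.
Mxd4: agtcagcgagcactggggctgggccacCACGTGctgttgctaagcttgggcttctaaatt
Mnt: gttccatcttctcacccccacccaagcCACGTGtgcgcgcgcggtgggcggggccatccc
Mlx: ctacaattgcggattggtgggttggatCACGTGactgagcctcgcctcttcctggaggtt
Mlxipl: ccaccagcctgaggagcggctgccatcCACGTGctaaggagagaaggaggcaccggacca
The motif begins 219, 123, 40 and 98 bases before the start of Mxd4, Mnt, Mlx and Mlxipl, respectively. It reads the same on both strands, so 1 search covers both. Max also holds it, beginning 3 bases before its start and running across it, while the windows of Mga, Mxd1 and Mxi1 do not, and Myc has no entry in the table used. Mlxipl has a second window, chr5:135106641-135106940 on the plus strand, with 0 matches. In all, 4 of the 7 members with a window held CACGTG, against 12.1% of tested genes and 8.09% of all genes with one. A match is a description of letters and not of bound protein.

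The libraries were evenly deep, at 15573405 to 17199639 counts, and 1 stood apart. Sham replicate 1 drew 11.9% of its counts from mitochondrially encoded genes, against 6.26% and 5.52% in the other sham libraries and 5.94% to 8.49% after resection. It also held the lowest Myc, Mxd4 and Mnt and the highest Mga of the sham group, so values without it are given below. Hepatocyte markers such as Alb summed to 38200 to 39600 FPKM in sham, and for 3, 6 and 12 h to 40300 to 49600, 36700 to 42600 and 24400 to 26200. Neutrophil markers summed to 1.6 to 2.17, 13.3 to 14.2, 9.21 to 19.5 and 6.49 to 8.01 FPKM in the same order, with 4 of 8 tested and 4, 3 and 2 of these higher than sham at 3, 6 and 12 h. The neutrophil granule gene Mpo was at 0 in all 12 libraries. Sinusoidal endothelial markers, all 7 tested, ran from 22.3 to 28.6, 37.3 to 46.9, 30.1 to 33.1 and 20.5 to 24.8 FPKM. Monocyte markers (2 of 6 tested) ran from 3.44 to 4.13, 11.5 to 16.4, 11.3 to 14.3 and 4.68 to 8.09. Cholangiocyte markers (3 of 5 tested) ran from 18.5 to 21.1, 28.4 to 38.9, 30.3 to 38.3 and 22.5 to 30.4, with 2, 3 and 1 higher than sham. Kupffer cell markers, all 8 tested, ran from 63 to 92, 87.5 to 106, 57.6 to 74.7 and 39.3 to 52.8. Of these, 1 was higher and 1 lower than sham at 6 h, and 1 higher and 3 lower at 12 h. Lymphocyte markers (0 of 7 tested) ran from 1.29 to 1.8, 0.643 to 1.55, 0.268 to 0.8 and 0.405 to 0.616. Stellate cell markers, all 7 tested, ran from 21.8 to 27.8, 26.5 to 41.7, 26.6 to 28.9 and 23.2 to 27.5. Of 8 hepatocyte markers, all tested, 2, 2 and 0 were higher than sham at 3, 6 and 12 h and 0, 0 and 4 lower. Sinusoidal endothelial markers had 4, 2 and 1 higher and 0, 1 and 1 lower. Stellate cell markers had 2, 0 and 1 higher and 0, 0 and 1 lower. Monocyte markers had 2, 2 and 1 higher and 0 lower. Among all tested genes, 9.81%, 16.8% and 13.5% were higher than sham and 11.7%, 18.2% and 15.3% lower. The part of these cell types in the results below was not tested. In whole liver, fewer cells of a type and less RNA per cell cannot be told apart.

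Mlx and Mxd1 marked the ends of the order of levels in all 4 groups. Mlx was the most abundant in every group (12.3 ± 0.656 FPKM in sham, mean ± SD, n = 3 libraries) and Mxd1 the least (0.782 ± 0.0256). In sham the order was Mlx, Mxd4 (7.32 ± 1.07), Max (4.03 ± 0.183), Mxi1 (3.39 ± 0.163), Mnt (3.05 ± 1.01), Mga (1.83 ± 0.776), Myc (1.08 ± 0.580) and Mxd1. From Mxi1 downward, neighbours in that order overlapped between libraries. At 3 h Myc (4.48 ± 0.597) came after Mlx, Max and Mxd4, level with Mxd4 (4.48 ± 0.0874) and overlapping it, and above Mxi1 and Mnt with no overlap. It held that place at 6 h (2.61 ± 0.443), where it overlapped Mga and Mxi1, and at 12 h (3.44 ± 1.5), where the wide Myc range overlapped those of Max, Mxd4, Mxi1 and Mnt. Across genes these are descriptions with no test.

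**Figure D1:**
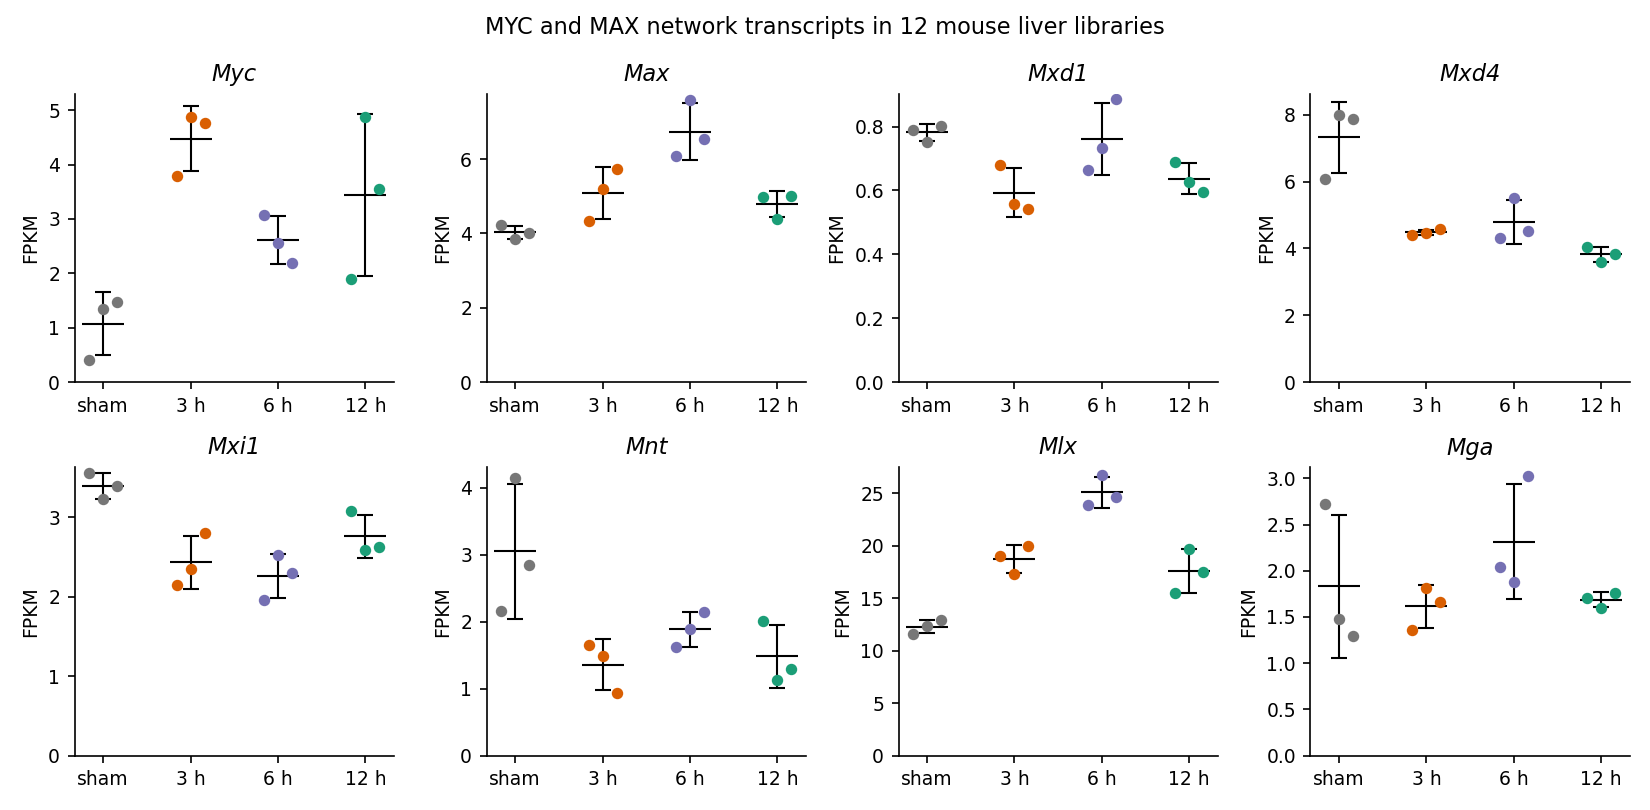
FPKM of the 8 genes by group, 1 point per library, with the mean and SD of 3 libraries as bars and each vertical axis starting at 0. Every resected library lies above all sham libraries for Myc, Max and Mlx and below them for Mxd4, Mxi1 and Mnt, while Mga overlaps.

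Myc (ENSMUSG00000022346, chr15:61985391-61990374) is the activating member. Its level was 0.412, 1.35 and 1.47 FPKM in the sham libraries. It was 3.79, 4.87 and 4.77 FPKM at 3 h, 3.08, 2.56 and 2.20 at 6 h, and 1.89, 4.88 and 3.54 at 12 h. All 9 resected libraries lay above the 3 sham libraries, and 12 h replicate 1 was the lowest of the 9. The transcript was scarce, with 19 to 242 counts per library. Against sham, Myc rose by a log2 difference of 2.0 ± 0.40 at 3 h (SE, edgeR adjusted p = 0.00312), 1.24 ± 0.40 at 6 h (edgeR adjusted p = 0.0293) and 1.65 ± 0.40 at 12 h (edgeR adjusted p = 0.00796). Without sham replicate 1 the differences were 1.62, 0.85 and 1.27, and the 6 h call was lost (edgeR adjusted p = 0.0503). It was also lost without 6 h replicate 1 (1.10) or 2 (1.25), in a fit of the 6 libraries alone (1.23), with library totals as scaling (0.91) and without both sham replicate 1 and 6 h replicate 3 (0.96). The calls at 3 h (1.44 to 2.29) and 12 h (1.08 to 1.94) held in every alternative run. Between resected times Myc did not pass: the difference was -0.76 ± 0.38 from 3 to 6 h (edgeR adjusted p = 0.251), 0.41 from 6 to 12 h (edgeR adjusted p = 0.465) and -0.35 from 3 to 12 h. The 3 h and 6 h libraries did not overlap, and the fall between them was called without the filter (-0.79, edgeR adjusted p = 0.0388) and with the 6 libraries alone (-0.77, edgeR adjusted p = 0.0253). Pvt1, the noncoding gene beside Myc, had 11 to 45 counts and was under the tested level.

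Max (ENSMUSG00000059436, chr12:76937269-76962201) encodes the partner that MYC and its antagonists share. It was at 4.22, 3.86 and 4.0 FPKM in sham, 4.34, 5.20 and 5.73 at 3 h, 6.09, 7.58 and 6.55 at 6 h, and 4.99, 4.38 and 5.01 at 12 h. Each resected library lay above the sham libraries, and the 6 h libraries were the highest. The rise passed at 6 h (0.72 ± 0.14, edgeR adjusted p = 0.00168), a call that held in every alternative run. The differences at 3 h (0.30 ± 0.14, edgeR adjusted p = 0.169) and 12 h (0.24 ± 0.14, edgeR adjusted p = 0.227) did not pass. Max fell from 6 to 12 h by 0.47 on the log2 scale (SE 0.14, edgeR adjusted p = 0.0275). That fall was not called with library totals (-0.17), without the filter (-0.51), or without 6 h replicate 2 (-0.38) or 3 (-0.49) or 12 h replicate 1 (-0.51), 2 (-0.41) or 3 (-0.50). An unnamed transcript on the same strand, Gm47218, shares 1319 bases of its span with 4 to 31 counts.

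Mxd4 (ENSMUSG00000037235, chr5:34173883-34187720) was the most abundant of the 4 antagonists. Its sham libraries held 6.08, 8.0 and 7.88 FPKM. The 3 h libraries held 4.4, 4.47 and 4.57, the 6 h libraries 4.31, 5.52 and 4.53, and the 12 h libraries 4.04, 3.60 and 3.84. All 9 resected libraries lay below the sham libraries, and no 12 h library reached the lowest 3 h or 6 h one. Mxd4 fell at every time, by -0.75 ± 0.14 at 3 h (edgeR adjusted p = 0.0021), -0.64 ± 0.14 at 6 h (edgeR adjusted p = 0.0033) and -0.95 ± 0.14 at 12 h (edgeR adjusted p = 0.000381), and these calls held in every alternative run.

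Mnt (ENSMUSG00000000282, chr11:74830920-74845725), the broadly expressed MAX partner that is thought to set the ceiling for MYC, was lower too. It was at 2.16, 4.15 and 2.84 FPKM in sham, 1.65, 1.49 and 0.933 at 3 h, 1.62, 1.89 and 2.15 at 6 h, and 2.01, 1.14 and 1.29 at 12 h. The sham libraries spread widely, and sham replicate 1 lay just above the highest resected library. The fall passed at 3 h (-1.20 ± 0.30, edgeR adjusted p = 0.0111) and 12 h (-1.05 ± 0.29, edgeR adjusted p = 0.0166), while 6 h did not pass (-0.72 ± 0.29, edgeR adjusted p = 0.0723). Single libraries decided these calls. The 3 h call was lost without sham replicate 2 (-0.91) or 3 h replicate 3 (-0.98), the 12 h call without sham replicate 2 (-0.77) or 12 h replicate 2 (-0.90) or 3 (-0.96), and the 6 h difference passed without sham replicate 1 (-0.92), without that library and 6 h replicate 3 (-1.02), with library totals (-1.05), with DESeq2 (-0.73) or without the filter (-0.69).

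Mxi1 (ENSMUSG00000025025, chr19:53310506-53375810), also called MXD2, recruits SIN3 like the MXD proteins. Its libraries read 3.55, 3.22 and 3.39 FPKM in sham, 2.15, 2.34 and 2.80 at 3 h, 1.96, 2.52 and 2.29 at 6 h, and 3.07, 2.58 and 2.62 at 12 h. No resected library reached the lowest sham library, and 12 h replicate 1 came nearest. Mxi1 fell at 3 h (-0.52 ± 0.15, edgeR adjusted p = 0.0256) and 6 h (-0.61 ± 0.15, edgeR adjusted p = 0.00674). At 12 h it did not pass (-0.31 ± 0.15, edgeR adjusted p = 0.146). The 3 h call was lost without the filter (-0.47), with the 6 libraries alone (-0.50) and without sham replicate 3 (-0.52) or 3 h replicate 1 (-0.42) or 2 (-0.50), and the 6 h call held in every alternative run.

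Mxd1 (ENSMUSG00000001156, chr6:86647042-86669161), the founding antagonist, was at 0.791, 0.753 and 0.801 FPKM in sham, 0.680, 0.559 and 0.541 at 3 h, 0.665, 0.734 and 0.885 at 6 h, and 0.688, 0.627 and 0.594 at 12 h. The 3 h and 12 h libraries lay below the sham libraries and the 6 h libraries overlapped them. It stayed under 1 FPKM everywhere, with 55 to 109 counts per library. In the fit without the filter its differences were -0.38 at 3 h (edgeR adjusted p = 0.536), -0.04 at 6 h (edgeR adjusted p = 1.0) and -0.31 at 12 h (edgeR adjusted p = 0.578), none of which passed.

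Mlx (ENSMUSG00000017801, chr11:101087277-101092207) encodes the partner of ChREBP and MondoA, and its message rose at every time. It was at 11.6, 12.4 and 12.9 FPKM in sham, 19.0, 17.3 and 19.9 at 3 h, 23.9, 26.7 and 24.6 at 6 h, and 15.5, 19.6 and 17.5 at 12 h. Every resected library exceeded the sham libraries, and every 6 h library exceeded those of 3 h and 12 h. The log2 differences from sham were 0.57 ± 0.13 at 3 h (edgeR adjusted p = 0.00622), 1.0 ± 0.13 at 6 h (edgeR adjusted p = 5.43e-05) and 0.50 ± 0.13 at 12 h (edgeR adjusted p = 0.0101). The 3 h and 6 h calls held in every alternative run. The 12 h call was lost without the filter (0.49), with the 6 libraries alone (0.51) and without 12 h replicate 2 (0.41). Mlx also rose from 3 to 6 h (0.43 ± 0.13, edgeR adjusted p = 0.0497), a call kept in only 4 of 22 alternatives, and fell from 6 to 12 h by 0.50 (SE 0.13, edgeR adjusted p = 0.0115), a fall not called with library totals (-0.20) or without 6 h replicate 2 (-0.45) or 12 h replicate 1 (-0.42). The meiotic gene Psmc3ip overlaps the end of Mlx by 385 bases on the opposite strand, with 4 to 61 counts against 394 to 823 for Mlx. The strand setting of the counting is not stated, so a share of these reads could belong to either gene.

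Mga (ENSMUSG00000033943, chr2:119897228-119969581) carries both a T-box and a MAX-binding domain and anchors a Polycomb complex called PRC1.6. Its libraries were at 2.72, 1.48 and 1.29 FPKM in sham, 1.36, 1.82 and 1.67 at 3 h, 2.04, 1.88 and 3.02 at 6 h, and 1.71, 1.6 and 1.76 at 12 h. Sham and resected libraries overlapped at every time. No difference from sham passed (-0.22 ± 0.25 at 3 h, 0.31 ± 0.25 at 6 h, -0.12 at 12 h, with edgeR adjusted p = 0.585, 0.367 and 0.754). The highest sham value was that of sham replicate 1, without which Mga was called higher at 6 h (0.71, edgeR adjusted p = 0.00875). Without that library and 6 h replicate 3 the 6 h difference was 0.47 (edgeR adjusted p = 0.0232).

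**Figure D2:**
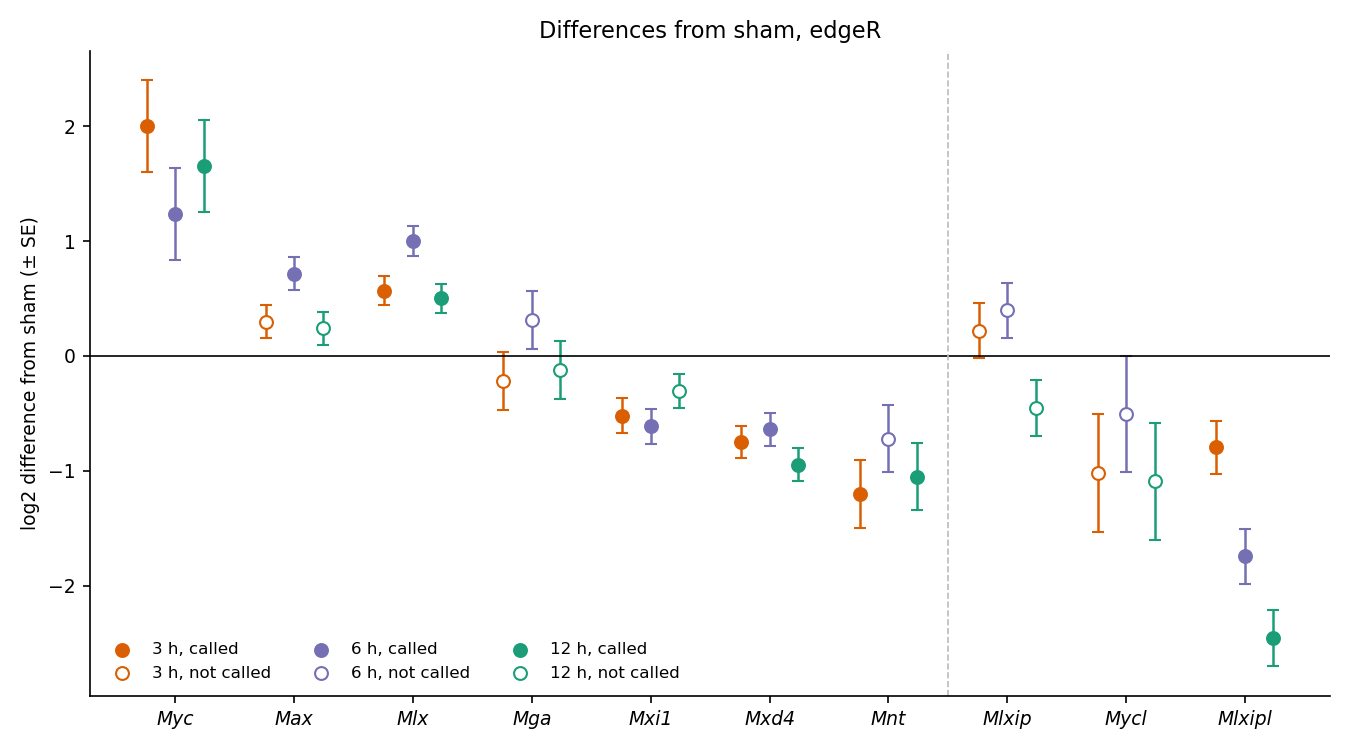
Log2 difference from sham with its SE, fitted by edgeR, for the 7 tested members and, right of the dashed line, 3 other network genes. Filled points passed at an adjusted p under 0.05. Myc and Mlx are above 0 and filled at all 3 times, Mxd4 and Mlxipl below 0 and filled at all 3, and Mga is open throughout.

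Counted over the family, a gene was called where its edgeR adjusted p was under 0.05 over all 11451 tested genes. At 3 h, 2 of 7 tested members were called higher and 3 lower, where the background was 9.81% of all tested genes higher and 11.7% lower. At 6 h, 3 were higher and 2 lower, against a background of 16.8% and 18.2%. At 12 h, 2 were higher and 2 lower, against 13.5% and 15.3%. Without sham replicate 1 and 6 h replicate 3 the members called numbered 5, 6 and 4 at the 3 times, against 5, 5 and 4. Across the 4 groups the edgeR F-test called 6 of 7, all but Mga, where 50% of all tested genes were called. Myc, Max, Mlx, Mxd4, Mxi1 and Mnt had sham libraries that did not overlap those of any time. The share of all tested genes with no such overlap was not counted, so this is a description of single genes only. The comparisons of 3, 6 and 12 h with sham share the sham libraries.

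Between resected times fewer members moved. From 3 to 6 h, 1 was higher (Mlx) and 0 lower, against 4.45% and 4.18% of tested genes, with 2 at an unadjusted p under 0.05. DESeq2 called 1 and limma 0. Over the last step, from 6 to 12 h, 0 were higher and 2 lower (Max and Mlx), against 12.1% and 12.6%. Unadjusted, 3 members were under 0.05, and DESeq2 and limma called 2 each. From 3 to 12 h no member was called by edgeR, DESeq2 or limma, or had an unadjusted p under 0.05, where 17.8% of tested genes were higher and 18.2% lower.

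The ratio of activator to antagonist messages can be read within each library. Summed over Mxd1, Mxd4, Mxi1 and Mnt, the antagonists came to 12.6, 16.1 and 14.9 FPKM in sham. The sums were 8.88, 8.86 and 8.85 at 3 h, 8.57, 10.7 and 9.86 at 6 h, and 9.81, 7.94 and 8.35 at 12 h. No resected library reached the lowest sham sum. Myc amounted to 3.27%, 8.35% and 9.88% of that sum in sham, 42.7%, 55.0% and 53.9% at 3 h, 35.9%, 24.0% and 22.3% at 6 h, and 19.3%, 61.4% and 42.5% at 12 h. In all 9 resected libraries the antagonists together still exceeded Myc. The 12 h libraries spread the widest, from below every 6 h library to above every 3 h library. These are messenger RNA ratios, described with no test, and they follow from the values of the single genes above.

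**Figure D3:**
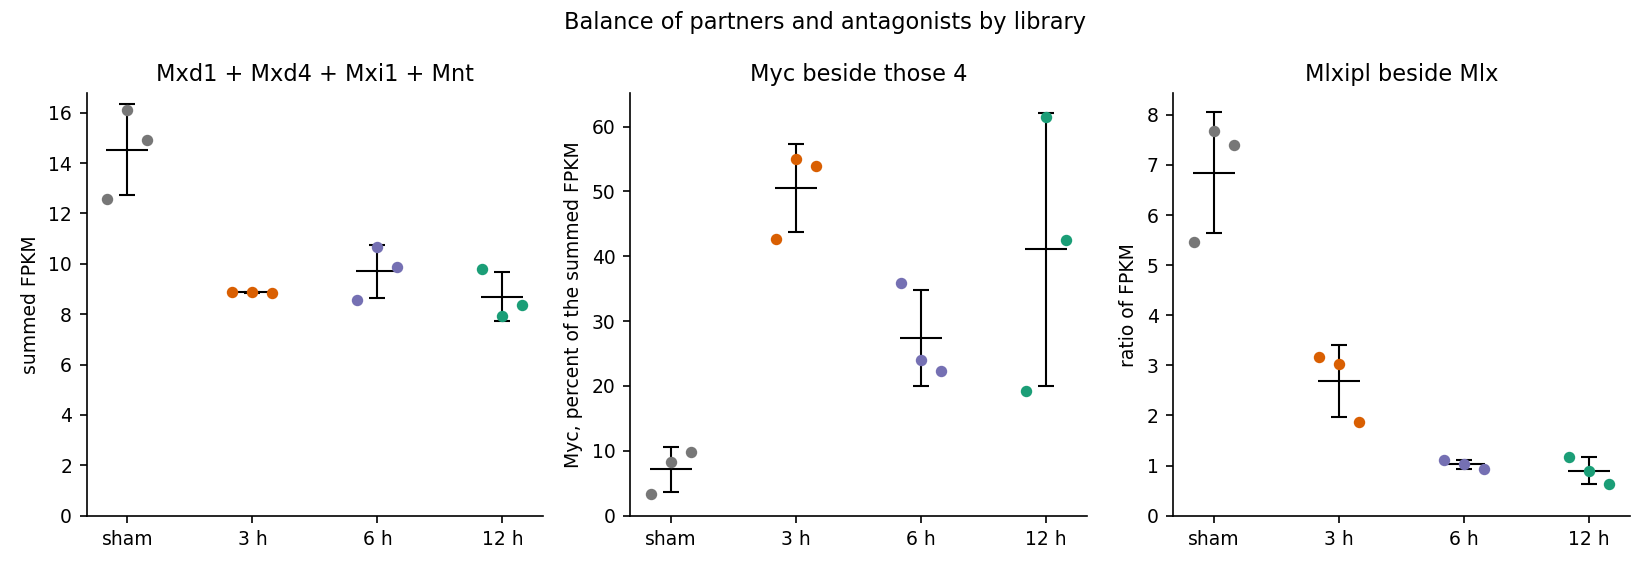
Left, summed FPKM of Mxd1, Mxd4, Mxi1 and Mnt. Middle, Myc as a percent of that sum. Right, the ratio of Mlxipl to Mlx in FPKM. Points are libraries, bars the mean and SD of 3, and axes start at 0. The Myc percentage is at most 9.88 in sham and at least 19.3 after resection, and the Mlxipl ratio falls from 5.46 or more to 1.17 or less at 6 and 12 h.

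Of 5 other genes of the network, the MLX partner gene Mlxipl was the most abundant. Mlxipl (ENSMUSG00000005373, chr5:135089890-135138382), which encodes ChREBP, was at 63.3, 94.9 and 95.6 FPKM in sham, 60.4, 52.4 and 37.1 at 3 h, 26.6, 27.8 and 22.9 at 6 h, and 18.0, 17.4 and 11.1 at 12 h. The libraries of each time lay wholly below those of the time before it. It fell by -0.80 ± 0.23 at 3 h (edgeR adjusted p = 0.0261), -1.74 ± 0.24 at 6 h (edgeR adjusted p = 9.62e-05) and -2.46 ± 0.24 at 12 h (edgeR adjusted p = 1.84e-05). The 3 h call was lost in the fit of 6 libraries (-0.78) and without sham replicate 2 (-0.71) or 3 (-0.70) or 3 h replicate 2 (-0.84) or 3 (-0.61). The Mlxipl to Mlx ratio was 5.46, 7.67 and 7.41 in sham and 3.18, 3.03 and 1.86 at 3 h. It was 1.11, 1.04 and 0.932 at 6 h, and 1.17, 0.885 and 0.633 at 12 h. An antisense transcript, Gm43500, overlaps Mlxipl by 884 bases with 2 to 53 counts.

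Mlxip, encoding the other MLX partner MondoA, was scarce beside Mlxipl. It was at 0.735, 1.14 and 1.29 FPKM in sham, 0.978, 1.27 and 1.55 at 3 h, 1.18, 1.48 and 1.58 at 6 h, and 0.708, 0.941 and 0.679 at 12 h. No difference from sham passed, but it fell from 6 to 12 h by 0.85 (SE 0.24, edgeR adjusted p = 0.0223) and from 3 to 12 h by 0.67 (SE 0.24, edgeR adjusted p = 0.0463), with no overlap between 6 and 12 h. The 6 to 12 h fall was not called in 5 of 22 alternatives and the 3 to 12 h fall in 11. At 12 h Mlxip was called lower than sham without sham replicate 1 (-0.66).

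Neither of the other MYC paralogs was called higher than sham at any time. Mycl, a paralog with tissue-restricted use, was at 1.24, 1.65 and 1.88 FPKM in sham, 1.22, 0.701 and 0.483 at 3 h, 0.783, 1.78 and 0.839 at 6 h, and 0.831, 1.21 and 0.208 at 12 h. The differences from sham of -1.02 ± 0.51, -0.51 and -1.09 ± 0.51 did not pass (edgeR adjusted p = 0.186, 0.471 and 0.128), although those at 3 h and 12 h passed in the fit without the filter. Mycn, the neural paralog, had 13, 10 and 40 counts in sham, 2, 6 and 4 at 3 h, 2, 9 and 11 at 6 h, and 19, 39 and 12 at 12 h. It was under the tested level, and in the fit without the filter it was lower at 3 h than in sham (-2.07 ± 0.66, edgeR adjusted p = 0.0182) and higher at 12 h than at 3 h (2.22, edgeR adjusted p = 0.0058). Mxd3, an antagonist of proliferating cells, had 1 to 10 counts per library and overlaps the abundant Prelid1, so nothing is read from it.

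Genes that MYC is known to activate were then counted in 5 lists. Together 88 of their 100 genes were tested, of which 31 rose and 6 fell at 3 h, 46 rose and 6 fell at 6 h, and 46 rose and 4 fell at 12 h. As shares, 35.2%, 52.3% and 52.3% rose, against 9.81%, 16.8% and 13.5% of all tested genes. Those that fell were 6.82%, 6.82% and 4.55%, against 11.7%, 18.2% and 15.3%. The median log2 differences were 0.29, 0.60 and 0.56, where the medians of all tested genes were -0.02, -0.01 and -0.02. Of the 88, 7 would fall under the tested level without the libraries of a single group. These were 5 cell cycle genes that passed through the 12 h libraries alone, and Mthfd2 and Tyms, which passed through 3 libraries of mixed groups and were called at no time. Without the 7, 81 genes gave 30, 44 and 41 that rose, 5, 6 and 4 that fell, and medians of 0.30, 0.65 and 0.51. The number that rose at 3 h was 20 with the 6 libraries alone. Scaling by library totals moved the median of all genes by -0.18 at 3 h, -0.31 at 6 h and -0.01 at 12 h, and the share of all calls that were higher was then 25.0%, 22.0% and 47.7%, in place of 45.5%, 48.1% and 46.9%. Under it the medians of the 5 lists together were 0.11, 0.28 and 0.55. The few genes of these lists that fell were less stable in number (0 to 9, 4 to 10 and 0 to 8 over the alternatives at the 3 times). The lists were compiled with earlier results of these data known and hold genes that other factors regulate as well.

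Nucleolus and ribosome assembly genes, which make ribosomal RNA and its particles, rose at each time in larger numbers than they fell. Of 34 tested, 19 rose and 1 fell at 3 h (median 0.54), 25 rose and 1 fell at 6 h (median 0.85) and 19 rose and 1 fell at 12 h (median 0.59). Those that rose were 55.9%, 73.5% and 55.9%, against 9.81%, 16.8% and 13.5% of all tested genes. At each time 2.94% fell, against 11.7%, 18.2% and 15.3%. Rrp12, a ribosome export factor, was at 1.13 ± 0.356 FPKM in sham and 3.47 ± 0.452, 4.81 ± 0.591 and 2.49 ± 0.575 at the 3 times (log2 differences 1.58 ± 0.24, 2.06 ± 0.24 and 1.12 ± 0.24). Nop58, a core protein of the snoRNPs that methylate ribosomal RNA, went from 1.63 ± 0.495 to 4.55 ± 0.793, 6.73 ± 0.859 and 4.53 ± 0.362 FPKM (1.44, 2.02 and 1.47). Rrs1 rose by 1.52, Nolc1 by 1.26 and, at 6 h, Mybbp1a by 1.39, while at 12 h Nop56 rose by 1.17 and the nucleostemin gene Gnl3 by 0.96. Between 6 and 12 h, 3 of the list rose and 10 fell, led by Rcl1 (-1.29), Ppan (-1.03, a call lost in 12 of 22 alternatives) and Rrp12 (-0.93). Against 12.1% and 12.6% of all tested genes, these were 8.82% and 29.4% of the list. Only 12 rose at 12 h without 12 h replicate 3, and with library totals only 3 fell from 6 to 12 h.

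Of 19 tested genes of polyamine, nucleotide and one-carbon synthesis, 3, 6 and 9 rose and 2, 3 and 2 fell at 3, 6 and 12 h, with medians of 0.15, 0.09 and 0.52. The shares that rose were 15.8%, 31.6% and 47.4%, against 9.81%, 16.8% and 13.5% of all tested genes, and the shares that fell were 10.5%, 15.8% and 10.5%, against 11.7%, 18.2% and 15.3%. Leaving out Mthfd2 and Tyms changed none of these counts. Those that fell numbered 0 at 3 h without sham replicate 1 or 3 h replicate 2, and 0 at 12 h without 12 h replicate 3. With library totals the first 2 medians were -0.05 and -0.22. Ung, a uracil glycosylase, climbed from 0.672 ± 0.126 FPKM to 3.38 ± 0.115, 4.24 ± 0.975 and 4.48 ± 0.786 (2.29, 2.62 and 2.72). Ctps, which makes CTP, went from 0.972 ± 0.156 to 2.19 ± 0.293, 3.61 ± 0.299 and 4.93 ± 0.489 (1.13, 1.86 and 2.33). Odc1, the rate-limiting enzyme of polyamine synthesis and a textbook MYC target, was at 17.1 ± 1.99 FPKM in sham and 44.3 ± 3.51 at 12 h (1.36 ± 0.15, edgeR adjusted p = 3.29e-05). Srm, the spermidine synthase, rose at 6 h (1.39), whereas Shmt1, a folate enzyme abundant in liver, fell at that time (-1.40).

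Of 10 tested transport and glycolysis genes, 5, 4 and 2 rose and 2, 2 and 1 fell, with medians of 0.63, 0.36 and 0.06. As shares, 50%, 40% and 20% rose, against 9.81%, 16.8% and 13.5% of all tested genes. Those that fell were 20%, 20% and 10%, against 11.7%, 18.2% and 15.3%. The falls were few and unstable. The number lower was 0 at 3 h without 3 h replicate 2 or 3 and 1 in most other alternatives, 1 at 6 h in 14 of 22, and 0 at 12 h without sham replicate 3 or 12 h replicate 1 or 3. The number higher at 3 h was 2 without 3 h replicate 1 and 2 with the 6 libraries alone. Ldha, lactate dehydrogenase A, was at 170 ± 43.5 FPKM in sham and 426 ± 87.2, 762 ± 97.7 and 527 ± 33.8 later (1.29, 2.14 and 1.62). Slc16a1, a lactate carrier, rose by 1.48 and 2.08 at 3 and 6 h, and the transferrin receptor gene Tfrc by 1.29, 1.75 and 2.37. The 3 h call of Tfrc was lost without 3 h replicate 1 (0.81) and with the 6 libraries alone (1.31). Pfkm, the muscle-type phosphofructokinase, fell by -1.91 at 6 h. Gapdh, among the 5 that rose at 3 h (1.12), was at only 1.85 FPKM in sham. It has many processed copies, and whether it kept all its reads was not tested.

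Of 15 tested translation factors and chaperones, 2, 7 and 6 rose, 0 fell and the rest did not pass, with medians of 0.25, 0.25 and 0.31. As shares, 13.3%, 46.7% and 40% rose, against 9.81%, 16.8% and 13.5% of all tested genes, of which 11.7%, 18.2% and 15.3% fell. The number that rose at 3 h was 4 without sham replicate 1, and 1 without sham replicate 2 or 3 or without 3 h replicate 2. With library totals the 6 h median was -0.06 and 4 rose, and 2 were lower at 12 h without sham replicate 1 and 1 with DESeq2. Eif4a1, the helicase that opens messenger RNA for translation, went from 45.8 ± 7.20 to 75.2 ± 5.21, 101 ± 3.39 and 86.3 ± 9.63 FPKM (0.67, 1.11 and 0.90). Eif4e, the cap-binding protein, rose at 6 h (0.77) and the initiation factor gene Eif2s1 at 12 h (0.99).

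Cell cycle genes were the last of the 5 lists counted. Of 10 tested, Ccne1, Cdc25a, E2f1, Mcm5 and Cdca7 reached the tested level through the 12 h libraries alone, so their difference there is built into the choice, and they are left out of the counts that follow. The background was 9.81%, 16.8% and 13.5% of all tested genes higher at 3, 6 and 12 h. Among the other 5 cell cycle genes, 1 rose and 0 fell at 3 h (Ccnd1, 1.10), 2 rose at 6 h (Ccnd1, 1.49, and Cks1b, 1.21) and 5 rose at 12 h. At 12 h these were Mcm4 (3.07 ± 0.23), a replication helicase subunit that went from 1.16 ± 0.315 to 9.81 ± 2.34 FPKM, cyclin D1 (3.06 ± 0.32), Cks1b (1.59), E2f3 (0.96) and Cdk4 (0.59). The 3 h call of Ccnd1 was lost with library totals (0.91) and without 3 h replicate 2 (0.97).

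**Figure D4:**
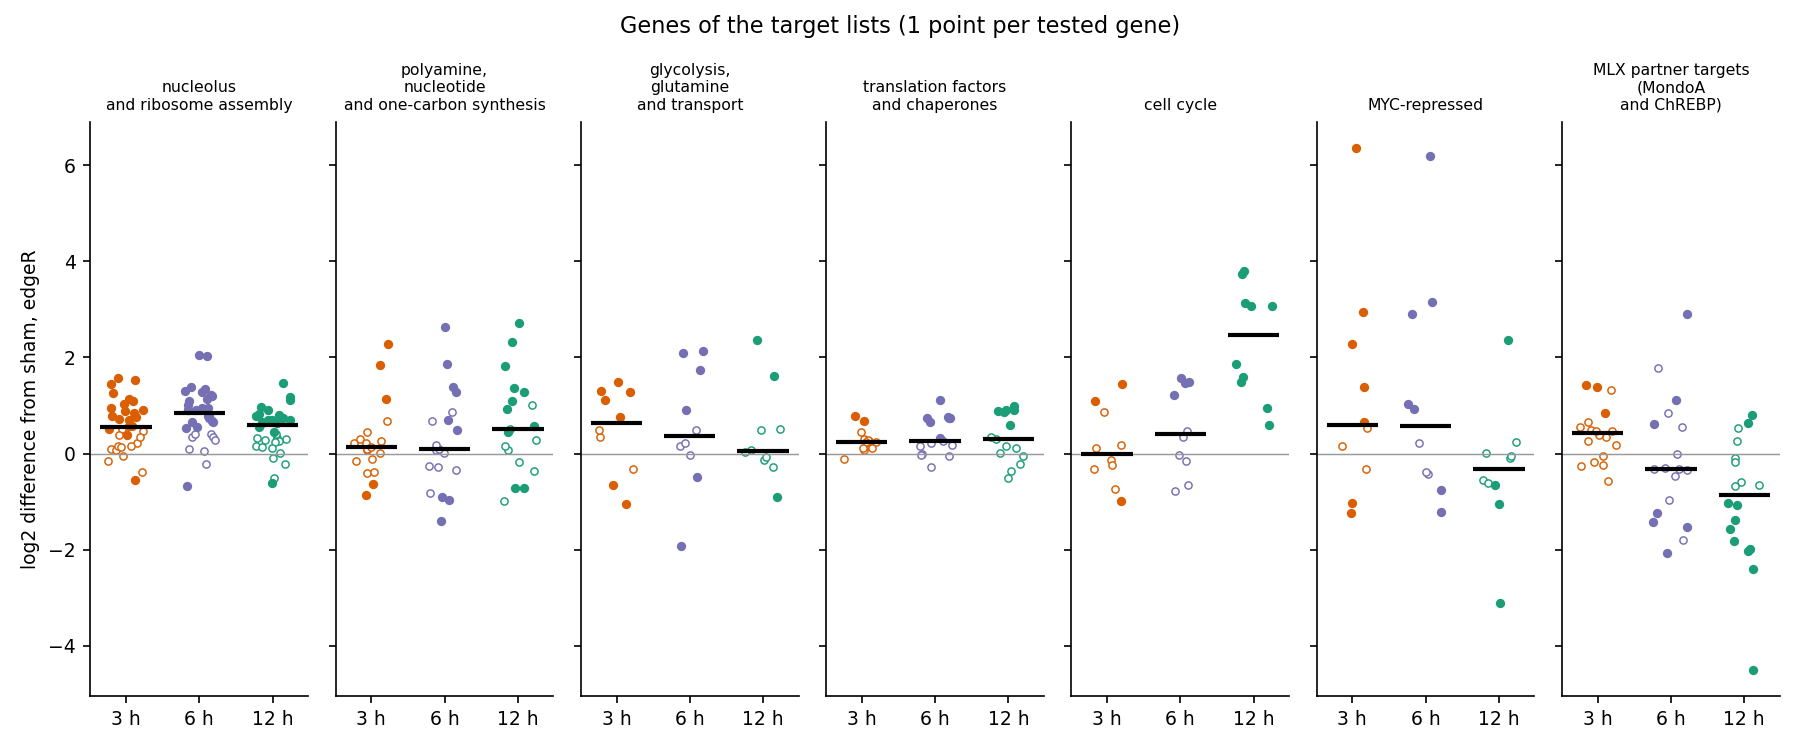
Log2 difference from sham (edgeR), 1 point per tested gene of 7 lists, filled where called and with the list median as a bar. Nucleolar genes have medians of 0.54, 0.85 and 0.59 at 3, 6 and 12 h. The cell cycle panel includes the 5 genes tested only because of their 12 h level, and the MLX partner panel runs from a median of 0.42 at 3 h to -0.85 at 12 h. The MLX partner panel includes Pnpla3, tested only because of its sham level, without which these medians are 0.38 and -0.67.

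Of 10 tested genes that MYC is known to repress, 5 rose and 2 fell at 3 h (median 0.59), 5 rose and 2 fell at 6 h (0.58), and 1 rose and 3 fell at 12 h (-0.32), or 5 fell without sham replicate 1. As shares, 50%, 50% and 10% rose, against 9.81%, 16.8% and 13.5% of all tested genes. Those that fell were 20%, 20% and 30%, against 11.7%, 18.2% and 15.3%. Cdkn1a, encoding the cell cycle inhibitor p21, was at 0.727 ± 0.410 FPKM in sham, 61.6 ± 11.8 at 3 h, 54.5 ± 1.18 at 6 h and 0.745 ± 0.197 at 12 h. It therefore rose by 6.35 and 6.19 and, from 6 to 12 h, fell by 6.17 on the log2 scale. Btg2, an antiproliferative gene, followed the same course at 6.43 ± 3.02, 32.1 ± 4.43, 49.2 ± 11.1 and 4.26 ± 0.678 FPKM. Thbs1, thrombospondin 1, rose by 2.95, 3.15 and 2.37, but its 12 h call was lost with limma on log2(FPKM + 1) (0.58) or log2(FPKM + 0.1) (1.53), and without sham replicate 2 (2.22) or 12 h replicate 1 (1.40). The members that fell at 12 h were the stress gene Ndrg1 (-3.10 ± 0.41), its relative Ndrg2 (-0.65 ± 0.14) and Cebpa (-1.04 ± 0.27), a factor of the quiescent hepatocyte that had already fallen at 3 h (-1.24) and 6 h (-1.21). The 12 h call of Cebpa was lost without sham replicate 2 (-0.81). Between 6 and 12 h, 0 of the list rose and 5 fell (median -0.78), where 12.1% of all tested genes were higher and 12.6% lower. None of 8 MYC-repressed genes with a RefSeq window held CACGTG, against 28.6% of 84 activated genes and 12.1% of tested genes with a window. With only 8 windows no difference is read from this.

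Targets of MLX with its partners MondoA and ChREBP changed sign over the series. Of 18 tested, 3 rose and 0 fell at 3 h (median 0.42), 3 rose and 4 fell at 6 h (-0.33) and 2 rose and 9 fell at 12 h (-0.85). As shares, 16.7%, 16.7% and 11.1% rose, against 9.81%, 16.8% and 13.5% of all tested genes. Those that fell were 0%, 22.2% and 50%, against 11.7%, 18.2% and 15.3%. The number that rose at 3 h was 1 without 3 h replicate 1 and 7 without the filter, and the 6 h median was -0.09 without sham replicate 1. Thrsp, a lipogenic gene, was at 95.2 ± 2.79 FPKM in sham, 262 ± 129 at 3 h, 36.0 ± 16.3 at 6 h and 18.2 ± 6.54 at 12 h (1.43, -1.43 and -2.40). Its 3 h call was lost without 3 h replicate 1 (0.96). Fasn, fatty acid synthase, was at 49.3 ± 9.12 in sham and 17.5 ± 2.95 and 12.5 ± 1.51 at 6 and 12 h (-1.52 and -1.99), and Acly, which makes acetyl-CoA for it, fell at 6 h (-2.06). Arrdc4, a classical MondoA target that limits glucose uptake, was at 3.08 ± 1.32, 8.16 ± 4.45, 23.4 ± 7.91 and 2.92 ± 0.738 FPKM (2.90 at 6 h). It moved apart from the lipogenic members. G6pc, encoding glucose 6-phosphatase, fell at 12 h (-2.03). The 9 include Pnpla3 (-4.49), which reached the tested level through the sham libraries alone, so its fall from sham is built into the choice. Without Pnpla3, 17 genes gave 3, 3 and 2 that rose and 0, 4 and 8 that fell. Their medians were 0.38, -0.32 and -0.67. At 12 h 4 of 8 hepatocyte markers were lower than sham too, and their part in these values was not tested. From 3 to 12 h, 0 of the list rose and 12 fell (median -1.36), or 11 (median -1.30) without Pnpla3. Of all tested genes 17.8% were higher and 18.2% lower over that span.

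Counts for the machinery around the network are best read against the shares of all tested genes, which were 9.81% higher and 11.7% lower at 3 h, 16.8% and 18.2% at 6 h, and 13.5% and 15.3% at 12 h. Of 14 genes of the corepressor that MXD proteins and MNT recruit, 0 rose and 3 fell at 3 h, 1 rose and 5 fell at 6 h, and 2 rose and 2 fell at 12 h. The shares lower were 21.4% and 35.7% at 3 and 6 h, and at 12 h 14.3% went each way, near the background. The number that fell at 6 h was 2 without 6 h replicate 1, and 3 without sham replicate 2, 3 h replicate 1, 6 h replicate 2, 12 h replicate 1 or 12 h replicate 3. The scaffold gene Sin3a was at 4.31 ± 0.849, 2.79 ± 0.310, 2.79 ± 0.587 and 4.74 ± 0.368 FPKM, and fell at 3 h (-0.66 ± 0.18, edgeR adjusted p = 0.0201) and 6 h (-0.65 ± 0.18, edgeR adjusted p = 0.0138). Its 3 h call was lost with the 6 libraries alone (-0.65) and without 3 h replicate 2 (-0.58) or 3 (-0.69), and its 6 h call with the 6 libraries alone (-0.67) and without 6 h replicate 1 (-0.49). From 6 to 12 h Sin3a rose by 0.78. The histone chaperone gene Rbbp4 fell as well at 3 h (-0.62) and 6 h (-0.60).

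Among 13 genes of the MGA complex, 0 rose and 2 fell at 3 h, 2 rose and 3 fell at 6 h, and 4 rose and 0 fell at 12 h, while Mga itself passed at no time. The shares at 3 h (15.4% lower) and 6 h (15.4% higher, 23.1% lower) were near the background, and 30.8% were higher at 12 h. The 2 higher at 6 h became 1 without sham replicate 2 or 6 h replicate 1 or 3. The number that rose at 12 h was 7 without sham replicate 1, 2 without 12 h replicate 1, and 1 without any one of the other sham and 12 h libraries. Tfdp1, an E2F partner, went from 4.99 ± 0.476 FPKM in sham to 8.38 ± 0.931 at 6 h and 11.3 ± 1.31 at 12 h (0.72 and 1.17). Its relative Tfdp2 fell at 3 h (-0.77) and 6 h (-1.52). At 12 h the core subunits Pcgf6 (0.54) and E2f6 (0.42) rose, calls lost in 6 and 8 of 22 alternatives. From 6 to 12 h, 7 of the 13 rose and 0 fell (median 0.45), or 4 without 6 h replicate 1, without 12 h replicate 3 or without the filter. Over that step 12.1% of all tested genes were higher and 12.6% lower, against 53.8% and 0% of this list.

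Of 17 MYC cofactors, 1 rose and 1 fell at 3 h, 4 rose and 1 fell at 6 h, and 1 rose and 2 fell at 12 h. These shares were below the background at 3 h (5.88% each way) and 12 h (5.88% higher, 11.8% lower), with 23.5% higher and 5.88% lower at 6 h. The number that rose at 6 h was 0 with library totals, 2 without 6 h replicate 1 and 1 without 6 h replicate 2, and 4 fell at 12 h without sham replicate 1. Trrap, the scaffold of histone acetyltransferases, fell at each time (-0.56, -0.93 and -0.76), although not at 3 h without the filter (-0.51) or with the 6 libraries alone (-0.54). Zbtb17, encoding the MYC partner MIZ1, fell at 12 h (-0.86), a call lost without sham replicate 2 (-0.73) or 3 (-0.77) or 12 h replicate 3 (-0.85). Ccnt1, a subunit of the elongation kinase P-TEFb, rose at 3 h (0.49) and 6 h (0.67), calls lost in 9 and 1 of 22 alternatives.

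Regulators of MYC protein gave few differences from sham, while a larger share of the regulators of Myc messenger RNA was called at 3 and 6 h. Of 15 genes of MYC protein turnover, 1 rose and 2 fell at 3 h, 3 rose and 2 fell at 6 h, and 1 rose and 1 fell at 12 h, or 5 fell at 12 h without sham replicate 1. The shares were near or below the background (6.67% higher and 13.3% lower at 3 h, 20% and 13.3% at 6 h, 6.67% each way at 12 h). The number higher at 3 h was 2 without any one of the sham libraries or 3 h replicate 1, and 4 were lower at 6 h without sham replicate 1. Pim3, a kinase reported to stabilise MYC, was at 22.5 ± 15.3 FPKM in sham, 102 ± 36.3 at 3 h, 79.2 ± 10.8 at 6 h and 16.5 ± 2.15 at 12 h (2.13 and 1.78 at 3 and 6 h). Usp28, a deubiquitinase of MYC, fell at 3 h (-1.21) and 6 h (-1.55) and stood at 1.64 ± 0.226 FPKM at 12 h against 1.65 ± 0.230 in sham. Ppp2r5a, a phosphatase subunit that acts on MYC, fell at all 3 times (-0.92, -1.40 and -0.75). Among 8 genes that act on Myc messenger RNA or on AU-rich messages generally, 3 rose and 2 fell at 3 h, 3 rose and 1 fell at 6 h, and 1 rose and 1 fell at 12 h. The shares were 37.5% and 25.0% at 3 h, 37.5% and 12.5% at 6 h and, near the background, 12.5% each way at 12 h. The 2 lower at 3 h became 1 without sham replicate 1 or any one of the 3 h libraries. Zfp36, encoding the decay factor tristetraprolin, was at 17.0 ± 1.42, 59.3 ± 9.01, 52.2 ± 10.7 and 14.3 ± 0.872 FPKM (1.76 and 1.59 at 3 and 6 h). Tob1, which brings in the CCR4-NOT deadenylase, fell at 3 h (-1.66) and 6 h (-1.42).

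The genes whose profile was most like that of a member over the 12 libraries were searched among 9592 protein-coding genes, by Pearson's r of log2(FPKM + 1). All 12 points share group differences, so r is a description and carries no p. For Myc these were Ecscr (0.955), Riox1 (0.936), Apex1 (0.92), Cap1 (0.919) and Sh3bp2 (0.911). For Mlx they were Psmc2 (0.972), Snu13 (0.97), Srsf3 (0.969), Dap (0.968) and Bub3 (0.961), and for Mxd4 Mib2 (0.968), Plxnb2 (0.966), Cops7b (0.95), Wdr81 (0.945) and Mcoln1 (0.942). Among the members themselves, r was highest between Max and Mlx (0.861) and between Mxd4 and Mnt (0.83), and lowest between Mxi1 and Mlx (-0.823). Myc had negative r with Mxd1 (-0.761), Mnt (-0.748), Mxi1 (-0.692) and Mxd4 (-0.684).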

How the data were processed

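Whole-liver poly(A) RNA-seq of 12 libraries was used. The submitters' processing notes list DESeq2 1.20.0, featureCounts 1.5.0-p3, HISAT2 2.0.5, fastp and CASAVA 1.8, and the build GRCm38 (mm10), but give these no role or order. The deposited counts are whole reads per gene, not normalized, per the file headers and the values. The deposited FPKM equal these counts divided by gene length and by a library size of geometric mean total times median-ratio factor, from the values. Strand use is not given in the sources used here.

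Genes with at least 1 FPKM in at least 3 libraries were tested, and these held at least 99.09% of each library's counts. The edgeR quasi-likelihood test with TMM scaling (edgeR 4.0.16, limma 3.58.1 and DESeq2 1.42.0 in R 4.3.3) was fitted to all 12 libraries with group as the only term and Benjamini-Hochberg adjustment over 11451 genes, two-sided. The SE is the log2 difference divided by the square root of F. The script was tested on simulated data. The library totals and the fitted biological coefficient of variation, 20.6%, limit what can be resolved. No 2 libraries of a group agreed within sampling noise (chi-square per gene 12.2 to 170).

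The members and lists were chosen with earlier results of these data known, so list counts are descriptions beside the background. Named are the members, 5 other network genes, up to 4 called genes of each list and comparison with the largest differences, the 5 genes most like Myc, Mlx and Mxd4, overlapping genes and Pvt1. Ccnd1, Cdk4, E2f3 and Cks1b at 12 h and Cebpa at 3 h fall outside that rule and were named after their values were seen, to account for all members of a count or course. One gene that the rule names is not reported here. Alternatives were other scalings, filters, tools, pseudocounts of 0.1 and 1, a replicate block, the 6 libraries compared, each library left out, and both doubted libraries left out.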

Additional observations from a re-analysis of the deposited data

Results flagged for a closer look

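For 4 genes the difference from sham was not the same at all times, by the edgeR contrast between those times (adjusted p under 0.05). Mlx rose further from 3 to 6 h (0.43 on the log2 scale) and came down from 6 to 12 h (-0.50). Max came down from 6 to 12 h (-0.47). Mlxipl fell in each step, by -0.95 from 3 to 6 h, -0.72 from 6 to 12 h and -1.66 from 3 to 12 h. Mlxip was lower at 12 h than at 6 h (-0.85) and than at 3 h (-0.67). Of these contrasts, Mlxipl from 3 to 12 h kept its call in every alternative run, and the others lost it in 3 to 18 of 22.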

How the results depend on the processing

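Over the members and the 3 other tested network genes, 1320 differences were recomputed under alternatives: 1203 kept direction and call, 80 lost the call, 18 gained one, none reversed, and 19 that were called under neither setting changed sign. The edgeR counts of all genes were 2468, 4004 and 3298 against sham at 3, 6 and 12 h, 988 from 3 to 6 h and 2828 from 6 to 12 h. Members called from 3 to 6 h, 1 in the report, were 0 with median-ratio scaling, library totals, filterByExpr, either limma fit or the replicate block, 2 with the 6 libraries alone and 0 to 3 with a library left out. From 6 to 12 h, 2 in the report became 1 with library totals or without the filter, and 0 to 3 with a library left out. At 12 h against sham, members ranged from 2 to 4 and all genes from 2112 to 5263 with a library left out, and 5494 genes were called without both sham replicate 1 and 6 h replicate 3. All genes at 3 h were 1532 with the 6 libraries alone. From 3 to 6 h they were 1492 without the filter, 1540 with DESeq2, 1485 with the 6 libraries alone and 400 to 2111 with a library left out, and from 6 to 12 h 1853 to 4200. The share of calls that were higher with library totals was 29.9% from 3 to 6 h, 84.8% from 6 to 12 h and 69.7% from 3 to 12 h, in place of 51.5%, 49.0% and 49.5%. The cause of these changes was not tested.

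Replicate numbers did not pair libraries: 4 of 18 same-number pairs correlated above 0.1 (-0.255 to 0.173, against -0.27 to 0.324 for other pairs), and 1 of 12 libraries correlated best with its own number. With the replicate block, Mlx from 3 to 6 h was 0.43 and not called (edgeR adjusted p = 0.0832). Precision for Myc is limited by its 19 to 242 counts per library, and for Mycn and Mxd3 depth allowed little to be said.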
